A study of Mus musculus with 10 samples.

Results

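Genes used as markers of fibro-adipogenic progenitors (FAPs) were followed in the tibialis anterior (TA) muscle of tumor-bearing and tumor-free mice, namely Pdgfra, Thy1, Ly6a, Cd34, Pi16, Dpp4, Dpt, Smoc2, Serpinf1 and Crispld2. They are 10 of the 39179 genes in the count tables, each matched to an Ensembl identifier by its mouse symbol, and all 10 were among the 12690 genes with enough reads to be tested. They were chosen with their difference between the groups already known, so that difference is described here without a test. The 6 LLC mice carried subcutaneous tumors grown from Lewis Lung Carcinoma cells, a mouse lung cancer line, injected into both flanks, and the 4 Control mice received buffer (PBS) alone. No engineered allele is named for either group, and the labels give the strain as C57BL/6J, the age as 10 weeks and the tumor development as 23 days in LLC and 0 days in Control. The design text of the series instead names male C57BL/10 mice of 8 weeks studied on day 22, so strain, age and day are not certain. Each source gives the same strain and age for both groups. The LLC animals were those that lived to the end of the experiment, and each mouse gave 1 library of RNA from whole muscle.

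FAPs are mesenchymal cells that lie between muscle fibres, outside the basal lamina and close to vessels. They make much of the connective tissue of muscle, help satellite cells during repair, and can become fat cells or matrix-producing fibroblasts. They are usually sorted by the surface proteins PDGFRα, the receptor encoded by Pdgfra, and SCA-1, which is encoded by Ly6a. Several of the 10 genes are active in other cells too. Endothelial cells make Ly6a and Cd34, satellite cells Cd34, and T cells Thy1 and Dpp4.

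Libraries held 16693209 to 21303084 counts. Levels are given as CPM, counts scaled to a common library total with TMM factors, and 3 counts, below which a gene was not taken as detected, equal 0.148 to 0.174 CPM. The labelled muscle was checked by its contractile genes. Myh4, the fast IIB form, averaged 39831 CPM in Control and 43675 CPM in LLC, and Acta1, skeletal muscle actin, 21518 and 15868 CPM. The library of LLC 1 stood apart from the rest of its group across the transcriptome, and the members' log2 fold changes that it moved most are also given without it. All 10 libraries shared a sequencing lane, and no batch of preparation is given.

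The members lie on 8 chromosomes (GRCm38, mm10, coordinates of GENCODE M21). Pdgfra (ENSMUSG00000029231) is at chr5:75152292-75198215, Thy1 (ENSMUSG00000032011) at chr9:44043384-44048579 and Ly6a (ENSMUSG00000075602) at chr15:74994877-74998031. Cd34 (ENSMUSG00000016494) and Dpt (ENSMUSG00000026574) are both on chromosome 1, at chr1:194938819-194961279 and chr1:164796644-164824266. Pi16 (ENSMUSG00000024011) and Smoc2 (ENSMUSG00000023886) are both on chromosome 17, at chr17:29317680-29330593 and chr17:14279506-14404790. Dpp4 (ENSMUSG00000035000) is at chr2:62330073-62412231, Serpinf1 (ENSMUSG00000000753) at chr11:75409769-75422701 and Crispld2 (ENSMUSG00000031825) at chr8:119992438-120052793. All are protein-coding, and the counting tool named in the methods takes exons by default. Exons of Pdgfra, Cd34, Pi16 and Dpp4 overlap an antisense gene. The default settings named in the methods count by strand, but the tables list other identifiers than the methods name, so it is not certain that reads of such partners were kept apart. The antisense partner of Cd34 had 4 to 9 counts and that of Dpp4 had 0 in every sample. Exons of Pdgfra also overlap the gene Mir7025 on the same strand, which counting by strand cannot set apart. Mir7025 had 0 to 2 counts.

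RefSeq promoters (GRCm38.p6) were matched for 7 members, and not for Thy1, Ly6a and Smoc2. The 250 bases before the RefSeq start are printed 5′ to 3′. They are those of 3 members that were lower in LLC and of Cd34, which was not. Capitals mark motif matches on either strand, which did not overlap one another.

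Pdgfra, chr5:75152001-75152250, plus strand: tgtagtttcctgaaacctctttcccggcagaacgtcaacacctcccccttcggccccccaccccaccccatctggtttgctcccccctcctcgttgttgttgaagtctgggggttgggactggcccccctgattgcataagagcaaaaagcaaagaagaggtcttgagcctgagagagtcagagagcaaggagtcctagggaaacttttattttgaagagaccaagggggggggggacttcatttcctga

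Dpt, chr1:164796413-164796662, plus strand: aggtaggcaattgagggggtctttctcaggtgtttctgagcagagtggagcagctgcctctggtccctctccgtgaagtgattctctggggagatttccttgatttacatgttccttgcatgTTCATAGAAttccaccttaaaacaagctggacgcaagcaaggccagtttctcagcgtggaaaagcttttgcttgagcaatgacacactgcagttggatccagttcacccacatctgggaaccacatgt

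Serpinf1, chr11:75422624-75422873, minus strand: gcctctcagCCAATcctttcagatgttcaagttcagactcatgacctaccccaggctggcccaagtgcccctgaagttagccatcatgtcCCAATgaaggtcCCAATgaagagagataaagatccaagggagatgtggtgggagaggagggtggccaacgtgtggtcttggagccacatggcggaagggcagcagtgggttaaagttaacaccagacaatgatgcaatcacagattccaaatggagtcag

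Cd34, chr1:194938571-194938820, plus strand: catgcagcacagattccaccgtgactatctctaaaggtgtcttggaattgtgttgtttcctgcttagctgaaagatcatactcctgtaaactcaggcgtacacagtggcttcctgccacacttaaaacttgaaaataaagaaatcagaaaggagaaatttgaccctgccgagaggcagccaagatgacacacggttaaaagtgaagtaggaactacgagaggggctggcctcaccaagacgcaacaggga

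The letters searched were the core promoter letters TATAAA, the upstream letters CCAAT, the GC box letters GGGCGG, the AP-1 letters TGANTCA, the STAT letters TTCNNNGAA and GTAAACA for FoxO. Among them, CCAAT stood in 3 of the 7 promoters, those of Pi16, Serpinf1 and Crispld2, and in 33.8% of all 32851 promoters in the table. The STAT letters stood in that of Dpt, 128 bases before the start, and in 7.02% of all promoters. TATAAA stood in that of Dpp4, against 12.4% of all. The GC box, AP-1 and FoxO letters, present in 32.7%, 6.75% and 3.17% of all promoters, were in none of the 7. The printed windows of Pdgfra and Cd34 held no match. No set of letters stood in all 6 of the lower members that had a promoter.

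In LLC muscle, 8 of the 10 markers were at 24.1% to 38.9% of their Control level, Cd34 was near its Control level, and Ly6a was at 193% of it. The 8 lower genes were Pdgfra, Thy1, Pi16, Dpp4, Dpt, Smoc2, Serpinf1 and Crispld2, with log2 fold changes of -2.06 to -1.36 and a median of -1.70. A gene was called past the threshold when it changed at least 1.5-fold with an adjusted p of at most 0.05 (quasi-likelihood test of edgeR, Benjamini-Hochberg over all genes). All 8 passed downward, against 3.99% of all tested genes, and Ly6a passed upward, against 1.65% of all tested genes. Since the members were chosen from this contrast, nothing is read from these shares. In 7 of the 8, all but Pi16, each LLC value was below each Control value, a pattern that 9.57% of all tested genes showed in that direction and 6.4% in the direction of Ly6a. In bulk muscle, fewer cells of a type and less RNA per cell cannot be told apart.

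**Figure D1:**
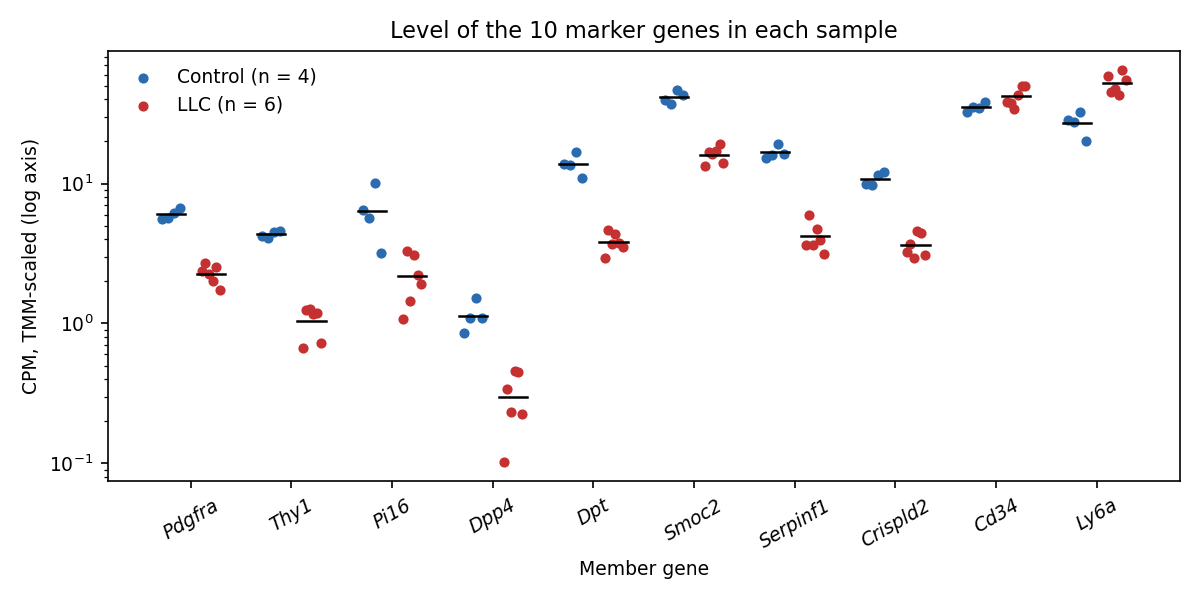
Level of each of the 10 marker genes (x axis) in each sample, as TMM-scaled CPM on a log axis. Blue points are the 4 Control and red points the 6 LLC samples, and black lines are group means. The first 8 genes sit lower in LLC, with the groups of Pi16 touching, Cd34 overlaps between the groups, and every LLC value of Ly6a is above every Control value.

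Pdgfra and Thy1, which encode surface proteins, were lower. Pdgfra, the receptor for platelet-derived growth factors that defines FAPs in most sorting schemes, had 5.61, 5.63, 6.11 and 6.68 CPM in Control 1 to 4, and a lowest, median and highest of 1.73, 2.31 and 2.71 CPM in LLC. Its counts were 106 to 122 in Control and 31 to 51 in LLC, and its log2 fold change was -1.40 ± 0.14 (SE, n = 4 and 6). The groups were far apart, as the highest LLC sample held less than the lowest Control sample. Thy1 encodes the glycoprotein CD90, which is held in the membrane by a lipid anchor. Thy1 had 4.24, 4.10, 4.49 and 4.60 CPM in Control, the tightest Control group of the 10 genes with a coefficient of variation (CV) of 5.27%. In LLC its lowest, median and highest values were 0.669, 1.17 and 1.27 CPM. Its log2 fold change of -2.06 ± 0.18 (SE) was the lowest of the members, and its 2 lowest LLC samples were LLC 1 and LLC 6, with 13 counts each.

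Genes of T cells, which also make Thy1 and Dpp4, were near the limit of detection. None of 9 T cell genes (Cd3e, Cd3d, Cd3g, Trac, Cd2, Cd5, Lck, Cd4 and Cd8a) had enough reads to be tested, the highest single count was 5, and their summed level was 0.274 to 0.543 CPM in Control and 0.232 to 0.503 CPM in LLC. The part of T cells in the levels of Thy1 and Dpp4 was not tested.

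Pi16 and Dpp4 mark a progenitor-like fibroblast state found in many tissues. Pi16 encodes peptidase inhibitor 16, and Dpp4 a membrane-bound dipeptidyl peptidase. Pi16 was the most variable member in Control, with 6.46, 5.63, 10.2 and 3.18 CPM and a CV of 45.5%. In LLC it had a lowest, median and highest of 1.08, 2.07 and 3.28 CPM. The groups overlapped by a narrow margin, because LLC 2 exceeded Control 4 alone. Its log2 fold change was -1.55 ± 0.34 (SE), and it no longer passed the threshold without Control 1 (-1.54) or without Control 3 (-1.23). Dpp4 was the rarest member, with 0.847, 1.09, 1.51 and 1.10 CPM in Control from 16 to 28 counts. In LLC it had 2 to 9 counts, a lowest, median and highest of 0.103, 0.285 and 0.454 CPM. Its log2 fold change of -1.89 ± 0.32 (SE) rests on few counts, and LLC 1 with 2 counts lay under the 3 counts taken as detected. Without LLC 1 it was -1.70.

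The 4 genes of secreted proteins were lower. Their CVs were 10.4% (Serpinf1) to 17.3% (Dpt) in Control and 13.6% (Smoc2) to 24.5% (Serpinf1) in LLC. Dpt encodes dermatopontin, a small matrix protein that binds decorin and collagen. It had 13.7, 13.5, 16.8 and 11.0 CPM in Control and a lowest, median and highest of 2.93, 3.74 and 4.69 CPM in LLC, a log2 fold change of -1.84 ± 0.15 (SE). Smoc2 encodes a calcium-binding matrix protein of the SPARC family. It was the most abundant of the 8 lower genes in CPM, with 39.2, 36.8, 46.9 and 42.7 in Control and 13.3, 16.6 and 19.2 as the lowest, median and highest in LLC. The log2 fold change of Smoc2 was -1.36 ± 0.12 (SE), the smallest of the 8. For both genes the groups were separated by a wide gap.

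Serpinf1 encodes pigment epithelium-derived factor, a secreted serpin known for blocking vessel growth. It had 15.3, 16.0, 19.3 and 16.4 CPM in Control and a lowest, median and highest of 3.13, 3.81 and 5.99 CPM in LLC. Its log2 fold change was -2.00 ± 0.16 (SE), next to that of Thy1. Crispld2 encodes a secreted protein with LCCL domains that binds lipopolysaccharide. It had 9.85, 9.78, 11.5 and 12.2 CPM in Control, 2.95, 3.46 and 4.59 CPM as the lowest, median and highest in LLC, and a log2 fold change of -1.56 ± 0.15 (SE). No LLC sample reached the lowest Control sample in either gene.

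Cd34 did not share the low level in LLC. It encodes a sialomucin of progenitor and endothelial surfaces, and had 32.3, 35.5, 34.6 and 38.0 CPM in Control. The lowest, median and highest LLC values were 34.0, 40.7 and 49.7 CPM. LLC 5 and LLC 6 were the highest of all 10 samples, and LLC 2 and LLC 3 lay inside the Control range. The log2 fold change of Cd34 was 0.26 ± 0.12 (SE) and did not pass the threshold, in the full data or in any of 18 alternatives.

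Ly6a was the single member past the threshold upward. It encodes SCA-1, a lipid-anchored surface protein of the Ly6 family used to sort FAPs and blood stem cells. Its level was 28.2, 27.3, 32.4 and 20.2 CPM in Control and 42.9, 50.9 and 64.4 CPM as the lowest, median and highest in LLC. Every LLC mouse exceeded every Control mouse, and LLC 5 and LLC 1 were the highest. The log2 fold change was 0.95 ± 0.15 (SE), a 1.93-fold difference in the direction opposite to the other sorting marker, Pdgfra. Without LLC 1 it was 0.92.

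**Figure D2:**
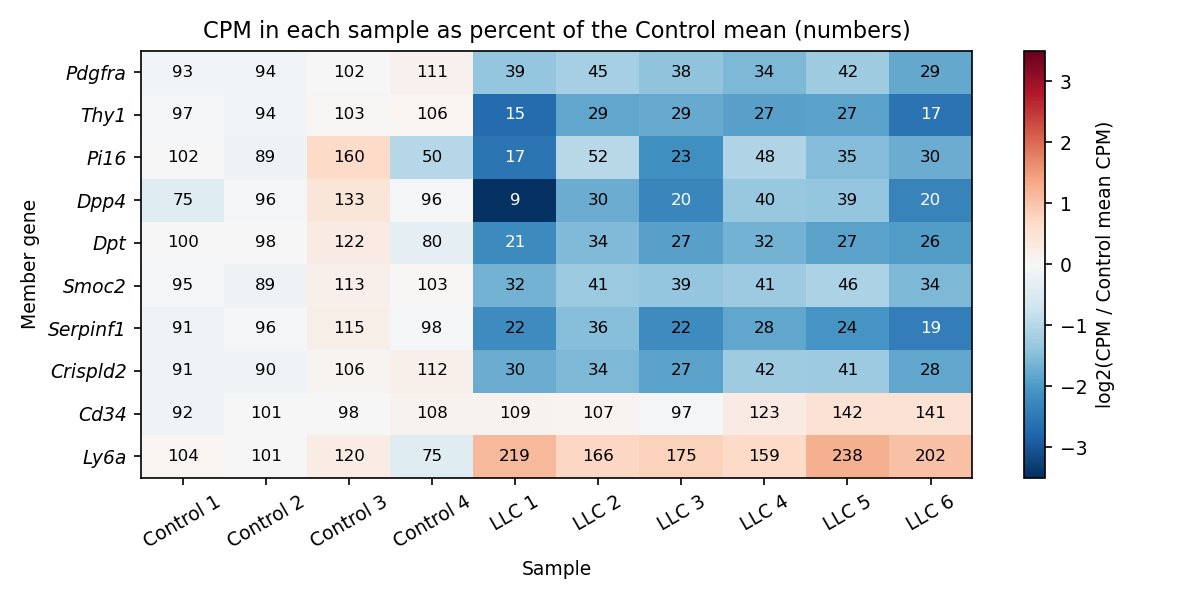
CPM of each member (rows) in each sample (columns) as a percent of that gene's Control mean, printed in the cells and colored by its log2 value. The 8 upper rows reach at most 51.5% in any LLC sample, whereas the Cd34 row runs from 96.9% to 142% and the Ly6a row from 159% to 238% in LLC.

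The LLC mice differed in how low the 8 genes were. Their median was 21.6% of the Control mean in LLC 1, 27.0% in LLC 6, 27.1% in LLC 3, 35.0% in LLC 2, 36.7% in LLC 4 and 37.2% in LLC 5. Within a mouse the 8 genes spread from 9.05% to 39.4% in LLC 1, the widest span, and from 16.7% to 33.6% in LLC 6. LLC 1 was the lowest LLC sample for 5 of the 8 (Thy1, Pi16, Dpp4, Dpt and Smoc2), LLC 6 for Pdgfra and Serpinf1, and LLC 3 for Crispld2. LLC 1 was the highest for none of the 8, and LLC 2 was the highest for 4. Without LLC 1 all 8 still passed the threshold. Pi16 was then at -1.40, Thy1 at -1.95, Serpinf1 at -1.95, Dpt at -1.76 and Smoc2 at -1.30 on the log2 scale. In Control, Ly6a, Pi16 and Dpt were all highest in Control 3 and lowest in Control 4. By contrast, Pdgfra, Thy1, Cd34 and Crispld2 were highest in Control 4. Over all tested genes, 10.5% showed the first order and 25.2% were highest in Control 4. The CV of the 8 was 5.27% to 45.5% among Control mice, and 13.6% to 46.2% among LLC mice.

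To compare genes with each other, CPM was divided by exonic length (RPKM, per kilobase). In Control, Ly6a led with 22.4 ± 4.20 RPKM (SD, n = 4). It was followed by Dpt (7.96 ± 1.38), Serpinf1 (7.09 ± 0.739) and Smoc2 (5.96 ± 0.632), whose ranges overlapped from each to the next. Cd34 (4.81 ± 0.327), Crispld2 (2.27 ± 0.251) and Thy1 (1.45 ± 0.0767) came next, each clear of the gene before it. Pi16 (0.999 ± 0.455) overlapped both Thy1 and Pdgfra (0.599 ± 0.0504), and Dpp4 was last with 0.180 ± 0.0439 RPKM. In LLC the same gene led and the same gene was last, with Ly6a at 43.3 ± 7.10 (SD, n = 6) and Dpp4 at 0.0474 ± 0.0219 RPKM. Cd34 came next at 5.76 ± 0.900 RPKM, ahead of the 3 secreted proteins that exceeded it in Control and clear of Smoc2 at 2.32 ± 0.316 RPKM. Smoc2, Dpt (2.22 ± 0.363) and Serpinf1 (1.77 ± 0.436) overlapped from each to the next, and the order of Crispld2, Thy1, Pi16 and Pdgfra was the same as in Control. Dpp4 was the rarest per length in both groups.

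Ratios within a sample do not depend on library scaling. Ly6a counts were 5.03, 4.85, 5.30 and 3.02 times those of Pdgfra in Control 1 to 4, and 16.6 to 31.5 times in LLC, with means and SDs of 4.55 ± 1.03 in the 4 Control and 23.5 ± 5.08 in the 6 LLC samples. The ratio of Cd34 to Pdgfra was 5.65 to 6.31 in Control and 13.9 to 28.6 in LLC. Smoc2, which was lower like Pdgfra, kept a ratio of 6.39 to 7.68 in Control and 5.61 to 8.45 in LLC. The first and second ratios did not overlap between the groups and the third did. The ratio of Ly6a to Cd34 also did not overlap, at 0.532 to 0.937 in Control and 0.994 to 1.55 in LLC.

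**Figure D3:**
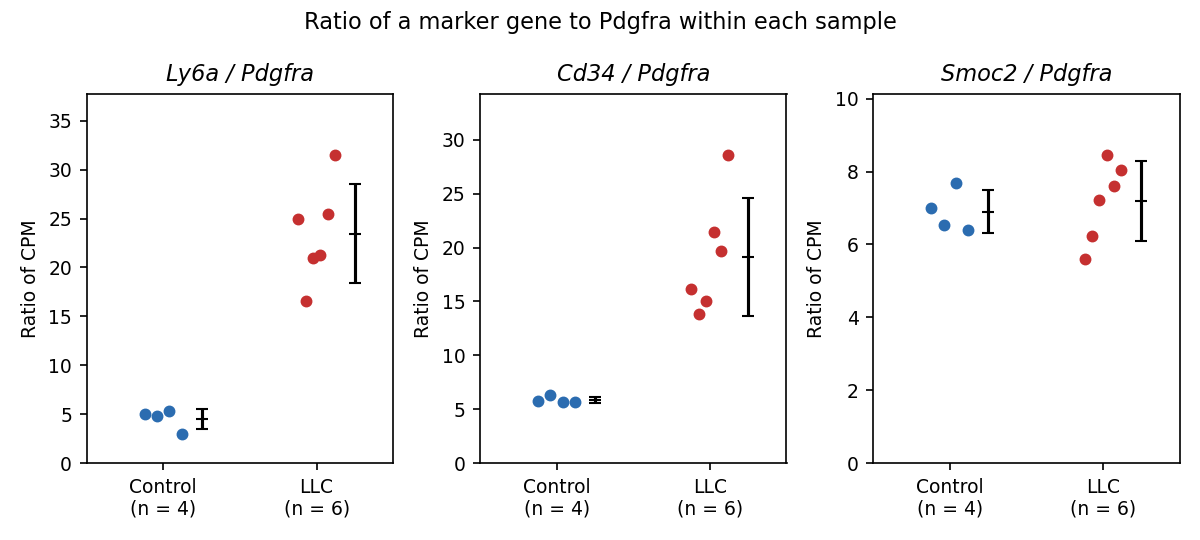
Ratio of CPM of Ly6a, Cd34 and Smoc2 to that of Pdgfra within each sample (y axes, from 0). Points are the 4 Control (blue) and 6 LLC (red) samples, and bars are the mean ± SD. The ratios of Ly6a and Cd34 are higher in every LLC sample, and that of Smoc2 overlaps between the groups.

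Other genes described in muscle FAPs and fibroblasts were lower in LLC for the most part. Of 32 such genes 29 were tested, and 17 fell, 0 rose and 12 did not pass the threshold, with a median log2 fold change of -0.93, against a median of 0.0019 over all 12690 tested genes. Over all tested genes, 3.99% passed downward and 1.65% upward. The list was not chosen by the rule, but it was drawn up with earlier results of these data known. Nothing is therefore read from these shares. The adjusted p-values of its genes come from the edgeR fit over all genes. Mfap5, a microfibril protein, averaged 4.14 ± 1.05 CPM (SD) in Control and 1.05 ± 0.402 CPM in LLC, and its log2 fold change was -1.97 ± 0.25 (SE, edgeR adjusted p = 0.000979). Myoc, which encodes myocilin, fell from 7.17 ± 0.713 to 2.04 ± 0.547 CPM (edgeR adjusted p = 0.000202). Clec3b, which encodes tetranectin, fell from 9.09 ± 1.37 to 2.66 ± 0.998 CPM (edgeR adjusted p = 0.00412), with a log2 fold change of -1.77 ± 0.29 (SE), or -1.56 without LLC 1. Entpd2, an ectonucleotidase, fell from 2.44 ± 0.290 to 0.816 ± 0.148 CPM (edgeR adjusted p = 0.000364). In these 4 genes the groups did not overlap. The count of 17 ranged from 12 to 19 when each sample was left out in turn.

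Not every gene of that list was lower. The following were named after their values were seen. Prrx1, a transcription factor of limb mesenchyme, was at 59.8 ± 3.85 CPM in Control and 54.5 ± 9.05 CPM in LLC, with a log2 fold change of -0.13 ± 0.13 (SE). Cd55, which protects cells from complement, was at 49.1 ± 4.65 and 48.7 ± 3.97 CPM, with a log2 fold change of -0.01 ± 0.09 (SE). Neither passed the threshold. The transcription factors Osr1 and Hic1, both used to trace FAPs, fell with log2 fold changes of -0.90 ± 0.21 and -0.93 ± 0.25 (SE).

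Of the PDGF system, the ligands did not pass the threshold. The log2 fold changes were -0.31 ± 0.12 for Pdgfa, -0.33 ± 0.21 for Pdgfb (-0.20 without LLC 1), 0.31 ± 0.30 for Pdgfc and -0.34 ± 0.25 for Pdgfd (SE). Pdgfrb, the receptor of pericytes and fibroblasts, was at 36.9 ± 1.92 CPM in Control and at 21.9 ± 3.41 CPM in LLC, and fell with a log2 fold change of -0.75 ± 0.11 (SE, edgeR adjusted p = 0.00216). The receptor-like gene Pdgfrl had at most 22 counts and was not tested. In all, 1 of 5 tested genes fell and 0 rose, with a median of -0.33.

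Ly6a lies in a cluster of Ly6 genes on chromosome 15, and 5 of 12 other family members were tested. Ly6c1, a marker of endothelial cells and a near relative of Ly6a, was at 42.4 ± 6.44 CPM in Control and at 65.4 ± 15.2 CPM in LLC, and rose with a log2 fold change of 0.63 ± 0.17 (SE, edgeR adjusted p = 0.0478). Its groups overlapped, and it lost the threshold in 13 of 18 alternatives. Those included leaving out any Control sample or any LLC sample but LLC 4, and its log2 fold change then ranged from 0.46 to 0.72 over the 18. Ly6c2, a marker of monocytes, had at most 0.159 CPM in Control, near the limit of detection, and 0.309 to 1.09 CPM in LLC (edgeR adjusted p = 0.0076). Ly6e (0.33 ± 0.11) and Gpihbp1 (0.08 ± 0.19) did not pass the threshold, nor did Lynx1 (-0.78 ± 0.30, log2 fold change and SE). Family members, Ly6a among them, are alike in sequence, and reads that fit more than 1 of them could not be separated here.

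Markers of other cells that could hold the members' transcripts were set beside them. Of 12 endothelial genes, a source of Ly6a and Cd34, 1 fell, 0 rose and 11 did not pass, with a median log2 fold change of 0.0019. Their summed level was 426 to 513 CPM in Control and 434 to 491 CPM in LLC. Kdr, a receptor for vascular endothelial growth factor, fell by 1.13 on the log2 scale (edgeR adjusted p = 0.0227), with Control at 63.1 ± 11.5 and LLC at 28.8 ± 10.6 CPM. Pecam1 was at 67.5 ± 6.58 and 83.7 ± 9.02 CPM and Cdh5, a cadherin of vessel walls, at 92.9 ± 10.9 and 71.9 ± 3.51 CPM, neither changed by 1.5-fold. The call of Kdr was lost without Control 1, Control 3, Control 4 or LLC 6. No endothelial marker was at 0. Vwf did not overlap between the groups and was higher in LLC (22.4 ± 3.25 and 30.5 ± 2.41 CPM). Cdh5, Tie1 and Emcn did not overlap and were lower. All 4 changed by less than 1.5-fold, and all but Cdh5 were named after their values were seen. The edgeR adjusted p-values of Vwf, Cdh5, Tie1 and Emcn were 0.0289, 0.0323, 0.0392 and 0.0194. Over all tested genes, 9.57% did not overlap with LLC lower and 6.4% with LLC higher. The part of endothelial cells in the levels of Ly6a and Cd34 was not tested.

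Interferon raises Ly6a in many cells, so genes of that response were set beside it. Of 17 such genes 2 fell, 0 rose and 15 did not pass, with a median log2 fold change of -0.09 and a summed level of 110 to 127 CPM in Control and 105 to 121 CPM in LLC. Those that fell were Gbp3, from 3.46 ± 0.477 to 1.85 ± 0.549 CPM, and Ifit3, from 2.60 ± 0.367 to 1.50 ± 0.341 CPM (edgeR adjusted p = 0.0264 and 0.0257). Each of these calls was lost in 6 of 18 alternatives. Among them were the fits without Control 2, Control 3, Control 4 or LLC 6. The fit without Control 1 for Gbp3 and that without LLC 5 for Ifit3 were also among them. Ifitm3, an interferon-induced gene outside this list and found below by its likeness to Ly6a, was at 17.2 CPM in Control and 29.7 CPM in LLC. The part of interferon in the Ly6a difference was not tested.

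**Figure D4:**
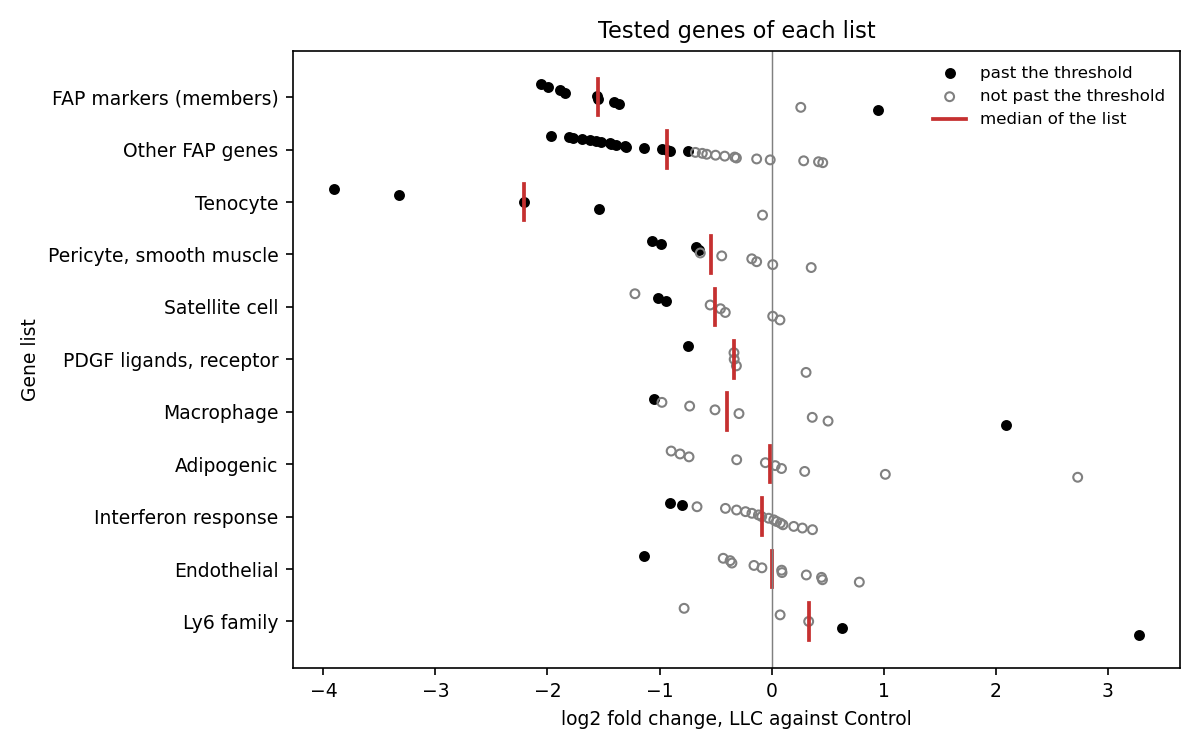
Log2 fold change of LLC against Control (x axis) for each tested gene of the marker genes and 10 other lists (y axis). Filled points passed the threshold, open points did not, and red lines are list medians. The FAP genes and tenocyte genes lie to the left, with medians of -1.55, -0.93 and -2.21, and the endothelial, interferon and adipogenic medians lie near 0.

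Of 10 pericyte and smooth muscle genes 4 fell and 0 rose, namely Cspg4, Notch3, Kcnj8 and Rgs5, with log2 fold changes of -1.06, -0.99, -0.67 and -0.65. Their summed level was 706 to 739 CPM in Control and 461 to 698 CPM in LLC. Of 8 tenocyte genes 5 were tested, and 4 fell and 0 rose. Thbs4, a matrix protein of tendon, fell from 43.9 ± 4.01 to 15.1 ± 6.27 CPM (edgeR adjusted p = 0.0077), with a log2 fold change of -1.54, or -1.37 without LLC 1. Egr1, an immediate early transcription factor also used by tendon cells, fell from 14.1 ± 9.23 to 3.05 ± 1.09 CPM (edgeR adjusted p = 0.0101). Scx, named after its values were seen, did not pass the threshold, with a log2 fold change of -0.08 ± 0.40 (SE). The summed tenocyte level, most of it Thbs4 and Egr1, was 55.4 to 77.4 CPM in Control and 7.82 to 27.9 CPM in LLC. Pericytes and tendon cells also make some of the lower members, and their part in the result was not tested.

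Of 8 tested satellite cell genes, a source of Cd34, 2 fell and 0 rose. Pax7, the transcription factor that defines satellite cells, fell from 2.39 ± 0.248 to 1.18 ± 0.269 CPM (edgeR adjusted p = 0.00626). The summed level of the list was 46.0 to 56.2 CPM in Control and 41.3 to 64.8 CPM in LLC. The part of satellite cells in the level of Cd34 was not tested. Of 8 tested macrophage genes 1 fell (Mrc1, from 3.06 ± 0.389 to 1.48 ± 0.291 CPM) and 1 rose. Past the threshold in DESeq2, and likewise in voom, 3 were lower and 1 was higher. The one that rose was Ptprc, the pan-leukocyte gene CD45, from 0.619 ± 0.0317 to 2.66 ± 0.908 CPM (edgeR adjusted p = 0.00119). Ptprc was higher in every LLC sample, as was Ly6a, while 5 of the 8 tested macrophage genes had a negative log2 fold change, and the part of leukocytes in the Ly6a difference was not tested. The summed macrophage level was 23.5 to 37.8 CPM in Control and 20.4 to 40.6 CPM in LLC.

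Genes of the fat cell fate of FAPs did not pass the threshold. Of 12 adipogenic genes 10 were tested, 0 fell and 0 rose in edgeR's quasi-likelihood test, with a median log2 fold change of -0.01. At an unadjusted p under 0.05, 0 were lower and 3 higher, and past the threshold 2 were higher in DESeq2 and 1 in voom. They were Cebpd and, in DESeq2 alone, Cebpb, transcription factors of early fat cell differentiation, named after their values were seen. Cebpd was at 4.90 ± 1.15 CPM in Control and varied widely in LLC at 32.5 ± 32.7 CPM. Lpl, a lipase, was at 397 and 422 CPM and Cd36, a fatty acid carrier, at 273 and 335 CPM in Control and LLC. Adipoq, Cidec and Retn, also named after their values were seen, had log2 fold changes of -0.82, -0.90 and -0.74, none past the threshold. In all, 5 of the 10 tested genes had a negative log2 fold change. The summed level, most of it Lpl, Cd36 and Fabp4, was 803 to 920 CPM in Control and 856 to 1171 CPM in LLC.

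The genes most like Pdgfra and Ly6a in level were sought by Pearson's r of log2 CPM over the 10 samples among genes with an average log2 CPM of at least 0. This is a description with no test, in which the difference between the groups raises r. For Pdgfra they were Gsn (r = 0.98), Dcn (0.98), Serpinf1 (0.98), Mmp2 (0.97) and Nbl1 (0.97), and Serpinf1 is itself a member. Gsn encodes the actin-severing protein gelsolin, Dcn the proteoglycan decorin, Mmp2 a matrix protease and Nbl1 an antagonist of bone morphogenetic proteins. With the group means removed, r of these genes with Pdgfra was 0.79, 0.73, 0.58, 0.42 and 0.56.

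For Ly6a they included Gpx3 (r = 0.97), Rilpl1 (0.96), Tnfrsf10b (0.96) and Ifitm3 (0.96). Gpx3 encodes a secreted glutathione peroxidase and was at 95.4 CPM in Control and 287 CPM in LLC. Tnfrsf10b is a death receptor gene, and Ifitm3 is an interferon-induced membrane protein gene, at 17.2 CPM in Control and 29.7 CPM in LLC. With the group means removed, r of these 4 genes with Ly6a was 0.84, 0.85, 0.77 and 0.79 in the order given. None of the 5 genes most like either member was among the closest 5 once the group means were removed.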

How the data were processed

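RNA of TA muscle from 4 Control and 6 LLC mice was used. Per the labels and the methods of the study, intact RNA was made into stranded total RNA libraries, and the authors mapped paired reads to mm10 with TopHat2 and counted them by HTSeq run with defaults. Raw read counts per gene were deposited, 1 table per sample, under Ensembl identifiers, although RefSeq genes are named in the methods. The defaults of HTSeq count by strand, but since the identifiers differ from the methods, whether these tables were made so is not certain, and the annotation release is not given in the sources used here.

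Low genes were removed with filterByExpr (count minimum 10) and TMM scaling was applied in edgeR 4.0.16 under R 4.3.3. The quasi-likelihood test of edgeR with Benjamini-Hochberg adjustment over the 12690 genes left compared the groups. Alternatives used DESeq2 1.42.0 and limma 3.58.1. Standard errors were derived from the F statistic. Log2 CPM used a prior count of 2. Coordinates, exonic lengths and overlaps came from GENCODE M21, which is on the same build. The fit was tested on simulated data. The members and lists were chosen with earlier results of these data known. Named genes were all members, up to 4 genes a list with the largest change past the threshold at an average log2 CPM of at least 0, the 2 most abundant where fewer than 2 passed, any tested Ly6 or PDGF gene, and the 5 genes most like Ly6a and Pdgfra, of which 1 is not reported here. Libraries were separate samples per the labels, so p-values measure the spread between these mice. Floors cover counting error only, whereas SEs and SDs include the spread between mice. No 2 libraries of a group agreed within sampling noise (chi-square per degree of freedom of at least 3.9).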

Additional observations from a re-analysis of the deposited data

How the results depend on the processing

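The number of members past the threshold downward was 7 to 8 when each sample was left out in turn and upward 1 throughout, and for the other FAP genes it was 12 to 19 downward and 0 upward. Pdgfra, Thy1, Dpt, Smoc2, Serpinf1, Crispld2 and Cd34 kept their direction and their side of the threshold in all 18 alternatives that refitted them. Median-of-ratios and upper-quartile scaling moved the median of all genes to 0.01 and -0.03 on the log2 scale. Same-numbered Control and LLC samples are different animals, and their deviations from the group means correlated at -0.08 to 0.13, so the numbers share only a label. With the replicate number as a block, which uses the 4 numbers that both groups hold, members past the threshold were 6 downward (without Pi16 and Dpp4) and 0 upward, other FAP genes were 7 downward, and all calls fell from 715 to 112. Without a Control sample there were 415 to 438 calls over all genes, and 966 without LLC 1. The DESeq2 Wald test gave 1052 calls and voom 997. Counts under 10, as for Dpp4 in LLC, limit the precision of its fold change.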
